A study of Mus musculus with 9 samples.

Results

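The wild-type samples of the series are the 3 of its 9 RNA-seq samples labelled Smarca1 +/+; Cre -/-, taken by that label alone. They come from whole cortical tissue of C57Bl/6 mouse embryos at E13.5, in the middle of gestation, and are numbered replicates 1 to 3. The other 6 samples, labelled Smarca1 -/-; Cre -/- or Smarca1 -/-; Cre +/-, were not analysed here. Nothing in the labels says whether the replicates are separate embryos, litters or pools, so the spread between them may be technical. The sources used here do not give the genotype of wild-type samples at Smarca5. The series' own design text calls the tissue forebrain, while the sample labels call it cortical. Values are TPM, the usual measure of transcript abundance, a level scaled for transcript length and fixed to the same total in each sample, so they are relative and not copies per cell. Replicates 1, 2 and 3 rest on 39466569, 29014263 and 30733260 estimated reads. Each value below is given as mean ± SD (n = 3) or as the 3 values in replicate order. A level in such bulk tissue cannot tell fewer cells of a type apart from less RNA in each of them. No test was made, because the question was how high each gene stands within the wild type.

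At this stage the dorsal wall of the forebrain is a layered sheet. Radial glia divide along the ventricle, intermediate progenitors derived from them divide above it, and the first glutamatergic neurons collect under the pia beside Cajal-Retzius cells. The ventral forebrain makes inhibitory neurons, some of which migrate into the cortex. Many genes in such tissue give several transcripts, through alternative promoters, exons and ends, so a gene's level and its isoforms are separate measurements.

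The genes that mark this tissue were all present. Neurog2, the proneural factor of dorsal progenitors, stood at 219.7, 228 and 218 TPM. Tbr1, a factor of early-born deep-layer neurons, stood at 186, 181 and 169 TPM. Eomes, which marks intermediate progenitors, stood at 147, 149.7 and 141 TPM, and Pax6, the radial glial patterning factor, at 138, 135 and 142 TPM. The 3 values of Neurog2 lay above all those of Tbr1, and those of Tbr1 above all those of Eomes, while the ranges of Eomes and Pax6 overlapped. Among the 14044 genes with a mean of at least 1 TPM, Pax6 lay at percentile 91.2, Eomes at 91.8, Tbr1 at 93.8 and Neurog2 at 95.1. In the GENCODE M21 annotation of GRCm38, Pax6 lies at chr2:105668900-105697364, plus strand, Eomes at chr9:118478212-118486132, plus strand, Tbr1 at chr2:61802930-61814114, plus strand and Neurog2 at chr3:127633135-127635631, plus strand.

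The replicates were close to each other. Of 35498 genes in the tables, 14016, 14012 and 14020 reached 1 TPM in replicates 1, 2 and 3, and 14842 were listed at 0 in all of them. Across the 14044 genes at a mean of 1 TPM or more, Pearson's r of log2(TPM + 1) between pairs of replicates was 0.990 to 0.991, a description across genes, which are not independent. Y-linked genes were present at like levels in every replicate: Eif2s3y, a translation factor subunit, stood at 101, 102 and 102 TPM, and Ddx3y, an RNA helicase, at 36.1, 36.9 and 36.2 TPM. No replicate lacked Y-linked RNA.

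Among the RNAs quantified, which include few long non-coding genes, the most abundant were mitochondrial, cytoskeletal and translational. The highest nuclear gene was Eef1a1, the elongation factor that brings tRNA to the ribosome, at 7265, 7421 and 7183 TPM. Tuba1a, the main alpha tubulin of young neurons, was the next nuclear protein-coding gene at 5164, 4956 and 5179 TPM. The beta thymosin Tmsb10, which binds actin monomers, stood at 4235 ± 63.6 TPM, and prothymosin alpha (Ptma) at 4214 ± 62.6 TPM, with overlapping ranges. Nnat, the imprinted gene of neuronatin, stood at 3444 ± 122.9 TPM and Stmn1, which destabilises microtubules, at 3126 ± 66.2 TPM. Next among nuclear genes that code for proteins other than ribosomal proteins came Tpt1 (2903 TPM), Actg1 (2822 TPM), Hnrnpa2b1 (2764 TPM), Tmsb4x (2705 TPM), Actb (2560.4 TPM) and Tubb2b (2467 TPM). Tubulins, actins and their partners thus stood among the highest genes, beside the general machinery of protein synthesis.

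**Figure D1:**
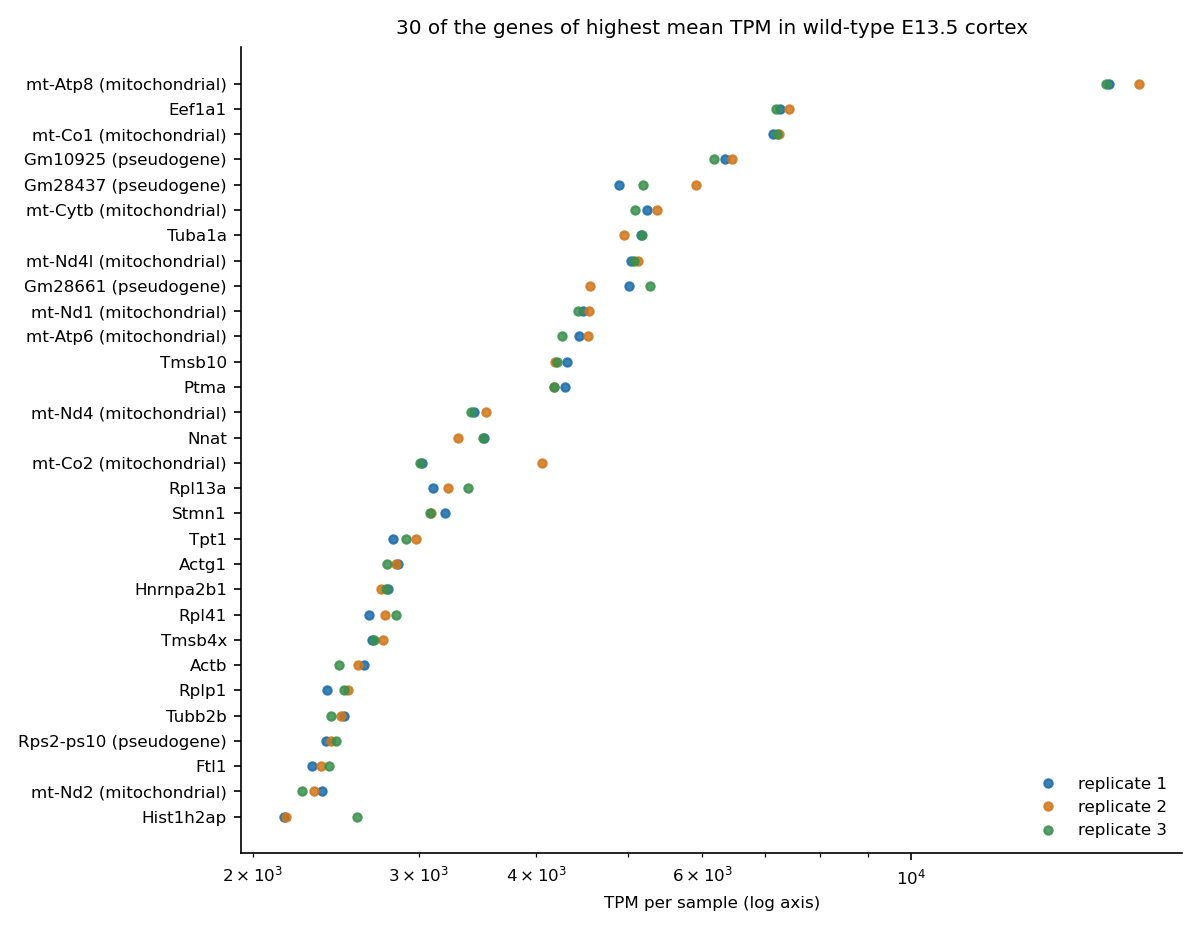
TPM in each of the 3 wild-type samples (log axis, 1 point per replicate) for 30 of the genes of highest mean. Genes of the mitochondrial chromosome and pseudogenes are marked; mt-Atp8 stands apart at 16601 TPM, and the points of most genes nearly coincide.

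Short, abundant genes held much of the TPM. The 10 highest genes of a sample took 6.76% ± 0.127 of TPM, the highest 100 took 24.2% ± 0.294 and the highest 1000 took 55.9% ± 0.288. By estimated counts, which are not scaled for length, the highest 100 took 13.6%. There were 132 genes at 1000 TPM or more, 1904 at 100 or more and 9864 at 10 or more. Genes at 1000 TPM or more came from short RNAs, with a median transcript length of 775 nucleotides (weighted by TPM within a gene), against 1887 for genes at 100 to 1000 TPM and 2667 for those at 10 to 100. The 81 cytoplasmic ribosomal protein genes matched by symbol summed to 8.502% ± 0.146 of TPM, 84 nuclear genes of the respiratory chain to 1.70% ± 0.0266, hnRNP genes to 1.64% ± 0.0143, and proteasome subunits to 0.609% ± 0.00971. Replication-dependent histone genes, whose main RNAs lack a poly(A) tail, summed to 0.288% ± 0.0264, and 10 variant histone genes to 0.663% ± 0.0123. Receptor genes of the nose were near absent: 1093 olfactory receptor genes together held 0.0308% ± 0.000543 of TPM.

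The order within the mitochondrial genes depended on the scale. mt-Atp8, an ATP synthase subunit, was the highest gene of all by TPM at 16226, 17459.8 and 16116 TPM, and its transcript is 204 nucleotides long, with a deposited effective length of 57 to 58. By estimated reads it placed 10 of 13 mitochondrial genes and held 3.06% of their reads, while mt-Co1, a cytochrome oxidase subunit, placed 1 and held 29.5%. All 13 genes of the mitochondrial chromosome summed to 5.64% ± 0.181 of TPM, but to 1.73% of estimated reads, and mt-Atp8 alone held 29.4% of the mitochondrial TPM. Beside them stood 6 nuclear copies at 50 TPM or more whose closest match is a mitochondrial gene. Of these, 3 lay among the 10 highest genes of the whole table. Gm10925 (6323 ± 134 TPM) shares 100% of its 31-base words with other genes, mt-Atp6 being its closest, Gm28437 (5336 ± 521 TPM) is the copy of mt-Co3, and Gm28661 (4953 ± 359 TPM) that of mt-Co2. Reads of such pairs can be divided either way, so levels of either member are uncertain. The division also moved between replicates: mt-Co2 stood at 3024, 4060.3 and 3009 TPM, highest in replicate 2, and Gm28661 at 5015, 4567 and 5277 TPM, lowest there. With the nuclear copies added, the mitochondrial share came to 7.55% ± 0.193 of TPM.

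Processed pseudogenes raised the same doubt for ribosomal proteins. Rpl31-ps8 stood at 2187 TPM against 440.1 for Rpl31 itself, and all of its 31-base words occur in the parent gene. Rps23-ps1 stood at 1933 TPM against 361 for Rps23, and Gm1821 at 2191 TPM against 1171 for Ubb, the polyubiquitin gene. Of the 1904 genes at 100 TPM or more, 88 (4.62%) shared at least 90% of their 31-base words with other genes, and 60 of those are annotated as pseudogenes. The levels of these genes are sums whose division between copies is not fixed by the reads.

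Radial glial genes were among the highest cell-type genes. All 16 genes of the list named for dorsal radial glia passed 10 TPM, against 9864 of the 14044 genes at 1 TPM or more. The median of the list was 107 TPM, against 24.2 TPM for those 14044 genes. The list holds dorsal genes such as Emx1 beside general ones such as Sox2 and Mki67, so it does not measure dorsal cells alone. Vim, the intermediate filament of radial processes, stood at 1009.9, 1068 and 1034 TPM, and Fabp7, the fatty acid-binding protein of radial glia, at 966, 1053 and 945 TPM, with overlapping ranges. Lhx2, the selector of cortical identity, stood at 387 ± 18.6 TPM and Sox2, a progenitor factor, at 236 ± 7.28 TPM. Hes5, a Notch target, stood at 135 ± 2.02 TPM, Emx1 and Emx2, dorsal homeobox genes, at 117 ± 2.57 and 92.7 ± 4.28 TPM, and the proliferation antigen Mki67 at 96.7 ± 3.92 TPM. The lowest of the list was Dmrt3, a medial patterning gene, at 19.5 ± 2.21 TPM. Of astrocyte genes, Gfap stood at 0.0861 TPM, Aqp4 at 0.489 TPM and Aldh1l1 at 8.34 ± 0.852 TPM, and S100b was listed at 0, whereas the radial glial transporter Slc1a3 stood at 47.3 ± 2.76 TPM.

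**Figure D2:**
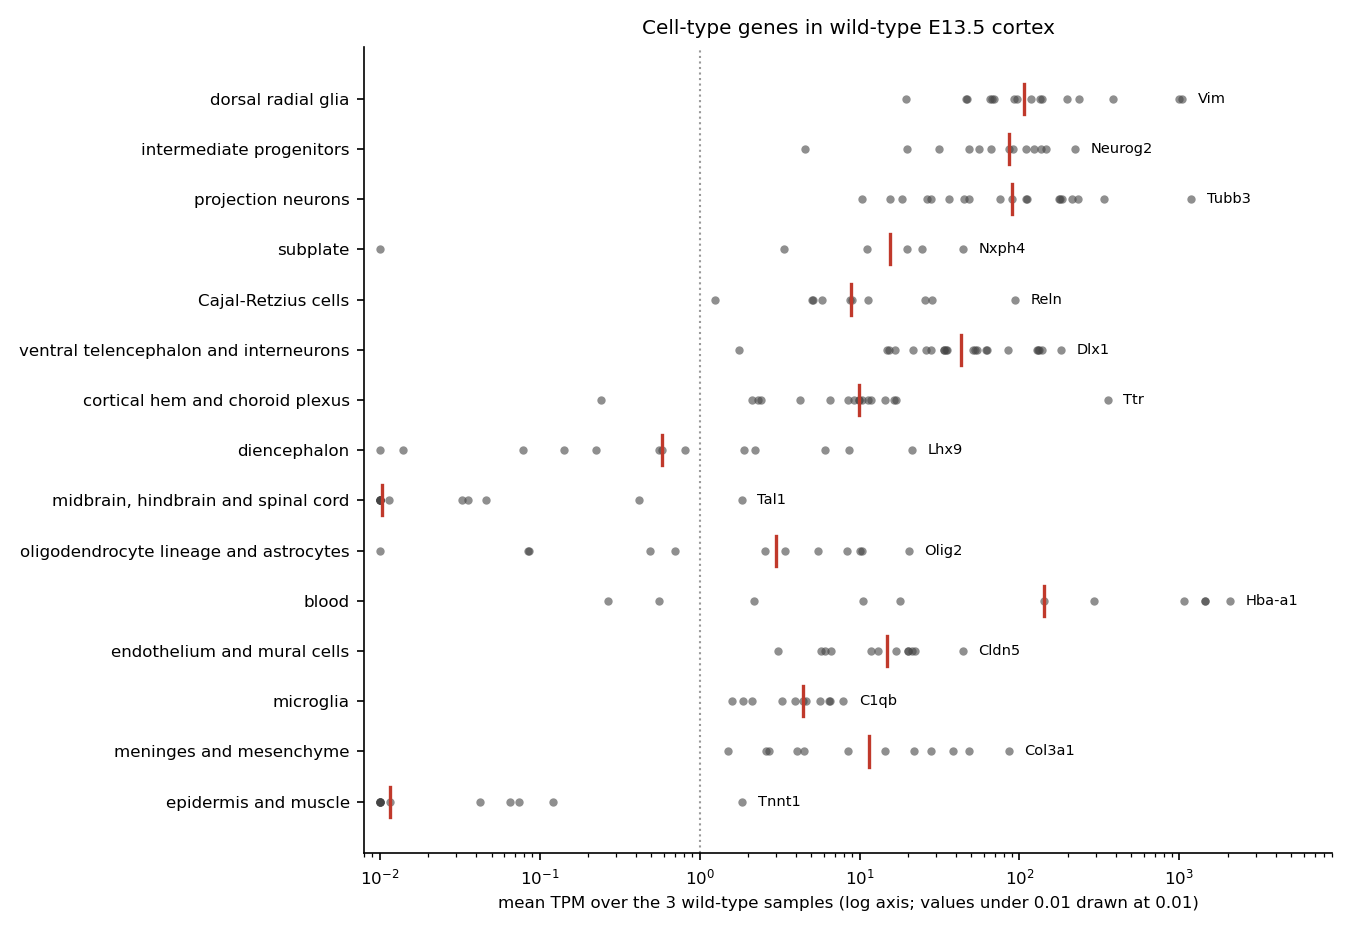
Mean TPM over the 3 wild-type samples (log axis) of each gene of 15 cell-type lists, 1 point per gene, with the list median as a red bar, the highest gene named, and a dotted line at 1 TPM. Progenitor and projection neuron genes lie mostly between 10 and 1000 TPM, and ventral telencephalic genes lie within the same range. Lists of the midbrain to spinal cord and of epidermis and muscle lie near 0.

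Intermediate progenitor genes spanned a wide range. Below Neurog2 and Eomes stood Gadd45g (136 ± 4.27 TPM), Insm1, a zinc finger factor of delaminating progenitors (122 ± 1.82 TPM), and Mfng, a glycosyltransferase that modifies Notch (109 ± 3.85 TPM). The Notch ligand Dll1 stood at 91.2 ± 2.39 TPM and Dll3 at 31.6 ± 1.01 TPM. Neurod4 was the lowest of the 13 at 4.55 ± 0.792 TPM. Neurod1, Neurog1 and Btg2, all genes of the step from dividing progenitor to neuron, lay between, at 48.1, 19.9 and 66.7 TPM.

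Neuronal genes were led by the cytoskeleton. Tubb3, the neuron-specific beta tubulin, stood at 1216, 1173 and 1172 TPM, above Vim in every replicate. Neurod6, a factor of postmitotic projection neurons, stood at 342, 356 and 312 TPM, Dcx (doublecortin) at 232 ± 13.7 TPM and Neurod2 at 214 ± 13.6 TPM. Laminar factors covered a wide range. Of those of deep layers, Tbr1 stood at 179 ± 9.07 TPM, Bcl11b (Ctip2) at 110.3 ± 9.96 TPM, Fezf2 at 90.3 ± 8.39 TPM and Sox5 at 75.1 ± 10.8 TPM. Cux1, an upper-layer factor also used in progenitors, stood at 112 ± 3.72 TPM, but Cux2 was at 48.4 ± 7.495 TPM, and its range lay below that of Sox5. Foxp2, of deep layers, stood at 15.5 ± 0.983 TPM. The vesicular glutamate transporters Slc17a7 and Slc17a6 stood at 44.9 ± 2.12 and 36.3 ± 3.31 TPM. All 19 projection neuron genes listed passed 10 TPM, and 9 passed 100. Of the 14044 genes at 1 TPM or more, 9864 reached 10 TPM and 1904 reached 100.

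Reln, the secreted signal of Cajal-Retzius cells, stood at 96.1, 91.6 and 92.3 TPM. Other genes of these cells were far lower: Trp73 stood at 11.3 ± 1.29 TPM, Calb2 at 9.02 ± 1.44 TPM, Lhx5 at 5.83 ± 0.158 TPM and Lhx1 at 5.13 ± 0.495 TPM. Subplate genes were modest, with Nxph4 at 44.4 ± 1.08 TPM and Nr4a2 at 24.4 ± 4.09 TPM, while Cplx3, a marker of later subplate neurons, was listed at 0 in all 3 samples.

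Genes of the ventral telencephalon were present in this tissue labelled as cortex, with a median of 43.3 TPM over the 22 genes listed. Dlx1, a homeobox factor of inhibitory neurons and their progenitors, stood at 189, 161 and 195 TPM, a range that overlapped that of Tbr1. Sst, the neuropeptide of an interneuron class, stood at 154, 122.99 and 139.7 TPM, and Dlx2 at 137, 122 and 139 TPM. Gad1 and Gad2, the enzymes that make GABA, stood at 62.2 ± 4.91 and 53.9 ± 3.52 TPM, and Lhx6, a factor of migrating interneurons of the medial ganglionic eminence, at 53.1 ± 5.66 TPM. Inhibitory neurons that migrate into the cortex express this group of genes. Genes of ventral progenitors and striatal or septal neurons were present too: Nkx2-1 stood at 52.0, 41.0 and 61.6 TPM, Isl1 at 34.5, 34.2 and 35.3 TPM, Gsx2 at 15.2, 13.3 and 17.6 TPM and Lhx8 at 16.9, 8.48 and 24.4 TPM. In all, 21 of the 22 genes listed passed 10 TPM, against 9864 of the 14044 genes at 1 TPM or more. The part that ventral tissue plays in these levels was not tested.

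The ventral genes also differed between replicates in a shared direction. Of the 22 ventral genes at 1 TPM or more, 20 were lowest in replicate 2 and 13 highest in replicate 3. Their sum was 1398, 1226 and 1398 TPM. Replicate 2 was highest in 8 of 16 genes of the radial glial list and lowest in 2 of them, Pax6 and Sox2. It was highest in 10 of 13 intermediate progenitor genes and in 11 of 16 genes of the cortical hem and choroid plexus. Replicate 3 was lowest in 17 of 19 projection neuron genes. Lists of other kinds leaned as well. Replicate 1 was highest in 18 of 22 remodelling ATPases and in 23 of 31 RNA-binding genes at 1 TPM or more. The 21 Polycomb genes were divided, with 5, 8 and 8 highest in replicates 1, 2 and 3. The share over all genes is not given here, so the counts do not show a lean particular to ventral genes. These counts are descriptions of 3 samples, and genes of a list are not independent of each other.

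**Figure D3:**
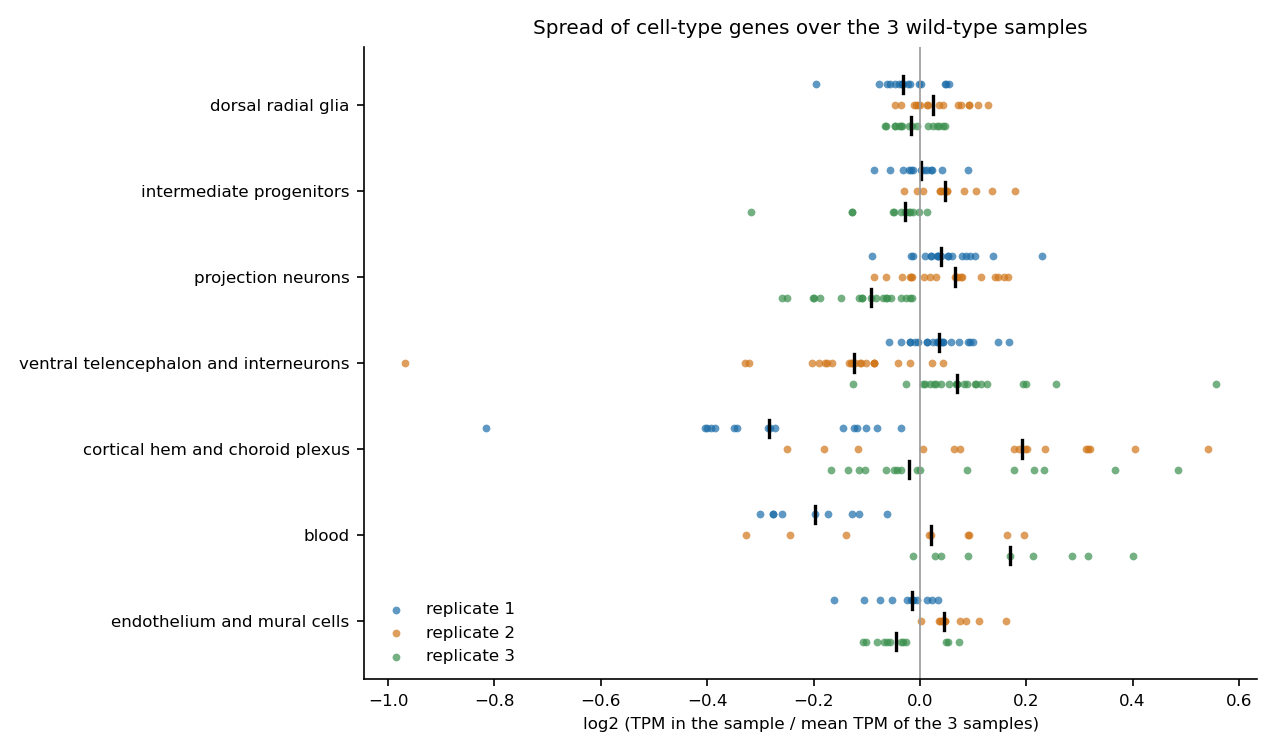
Log2 ratio of each sample to the mean of the 3 wild-type samples for the genes of 7 cell-type lists with a mean of 1 TPM or more. Each point is a gene, coloured by replicate, and black bars are medians over the genes. Replicate 2 is lowest in 20 of 22 ventral genes and replicate 1 in 13 of 16 hem and choroid plexus genes. The share over all genes is not given.

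Signalling centres at the cortical edge were visible at low levels. The hem genes Wnt8b, Wnt3a and Wnt2b stood at 9.98 ± 2.33, 2.31 ± 1.03 and 2.11 ± 0.508 TPM, and the Wnt amplifiers Rspo1, Rspo2 and Rspo3 at 14.5 ± 4.19, 9.18 ± 2.24 and 16.3 ± 2.09 TPM. Ttr (transthyretin), a secreted product of choroid plexus, stood far above at 292, 357 and 418 TPM, while the choroid plexus genes Clic6, Kcne2 and Folr1 stood at 11.9, 10.4 and 6.51 TPM. Kl, of mature choroid plexus, stood at 0.242 TPM. Diencephalic genes were low, with Lhx9 at 21.3 ± 2.49 TPM and 5 of 13 genes listed reaching 1 TPM. Of 12 genes of the midbrain, hindbrain and spinal cord, only Tal1 reached 1 TPM (1.83 ± 0.418 TPM), a gene that blood and vessels also use.

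Non-neural cells were also read. Blood gave the most RNA of these: the alpha globin of definitive red cells Hba-a1 stood at 1719, 2114 and 2414 TPM, and 75.5% of its 31-base words are shared, nearly all with Hba-a2 (1062 TPM), so their division is uncertain. The embryonic beta-like globin Hbb-y stood at 1261, 1314 and 1763 TPM. The 11 blood genes listed and found summed to 5552, 6677 and 7296 TPM, lowest in replicate 1. Endothelial genes were steadier, led by Cldn5, a tight junction protein, at 44.1 ± 4.05 TPM. Microglial genes were low but all 11 reached 1 TPM, with C1qb at 7.92 ± 1.01 TPM and Csf1r at 6.45 ± 0.208 TPM. Meningeal and mesenchymal genes were led by Col3a1 at 85.8 ± 6.30 TPM. Genes of epidermis and muscle were near 0, apart from Tnnt1 at 1.85 ± 0.749 TPM. Of 12 genes of oligodendrocytes and astrocytes, 7 reached 1 TPM. Among them Olig2 stood at 20.3 ± 3.06 TPM, and its ventral progenitor use predates oligodendrocytes, while Sox10, below that level, was at 0.702 ± 0.395 TPM.

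Transcription factors as a class were of moderate level. The 444 genes of 39 factor families matched by symbol held 1.54% of TPM. Of these, 281 reached 1 TPM, a share near that of all protein-coding genes (13276 of 21794). Their median was 22.1 TPM, close to that of all genes at 1 TPM or more. The highest was Sox4, a SoxC factor, at 578, 568 and 525 TPM. Sox11, a further SoxC factor of young neurons, stood at 493, 472 and 454 TPM. Below them were Tcf4, the E protein partner of bHLH factors (421 ± 16.3 TPM), the thyroid hormone receptor Thra (399 ± 18.6 TPM), Lhx2, Nr2f1 (COUP-TFI, an areal patterning gene, 386 ± 10.2 TPM) and Neurod6. Tead2, a Hippo pathway factor, stood at 304 ± 22.4 TPM and Meis2 at 303 ± 12.3 TPM. Nfib and Nfix stood at 258 ± 25.4 and 237 ± 16.4 TPM, Jund at 254.9 ± 3.06 TPM and Tcf3 at 251 ± 3.93 TPM. Id4, an inhibitor of bHLH factors, and Hes6, which antagonises Hes1 and favours neurogenesis, stood at 227 ± 19.98 and 179 ± 4.49 TPM. The 40 factor genes at 100 TPM or more thus mixed progenitor, neuronal and general factors.

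**Figure D4:**
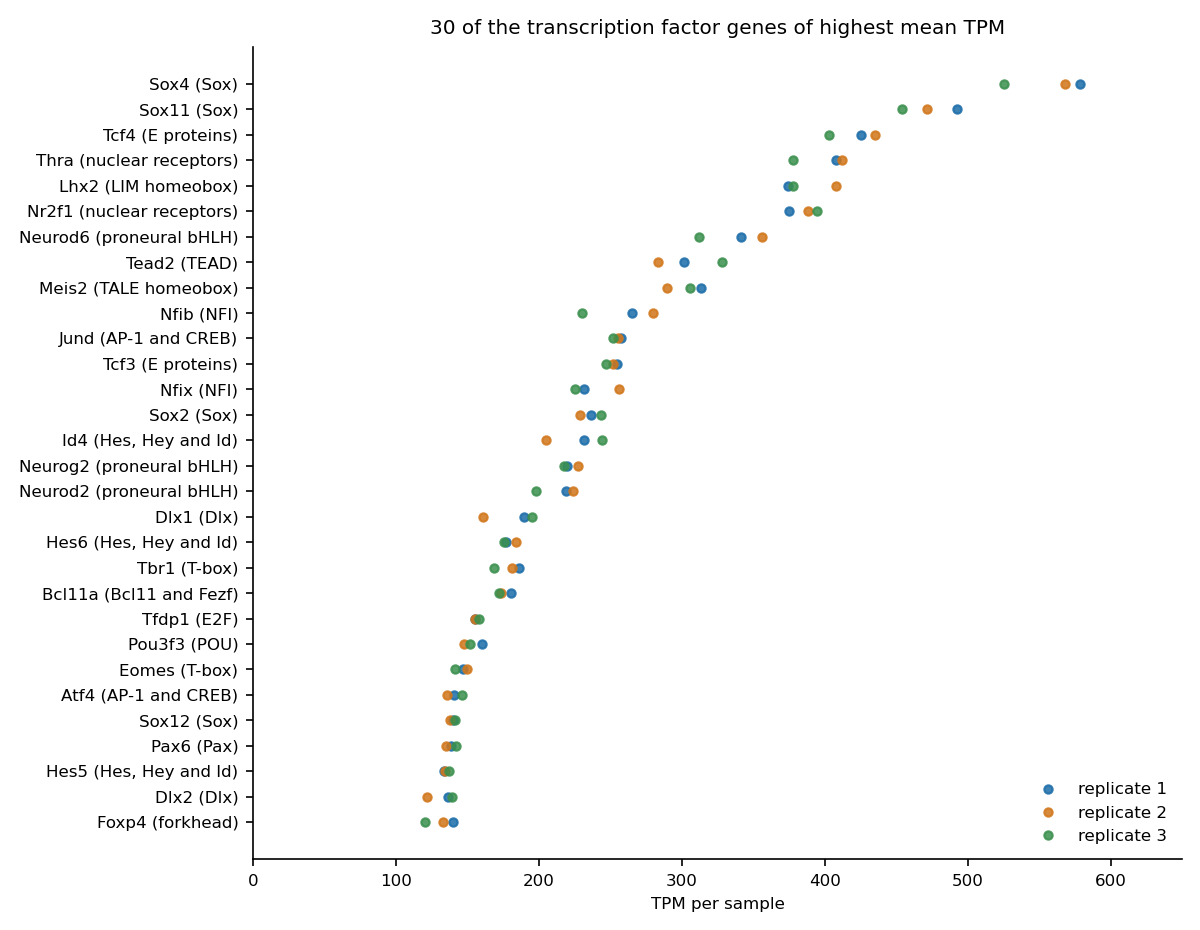
TPM in each of the 3 wild-type samples (1 point per replicate) for 30 of the transcription factor genes of highest mean, with the family in brackets. Sox4 leads, above 500 TPM in every sample, and the points of most neighbours in the order overlap.

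Some families rested on 1 member. Of 9 Pax genes only Pax6 reached 1 TPM, and the next, Pax4, stood at 0.216 TPM. Lhx2 held 387 of the 528 TPM summed over 12 LIM homeobox genes, and Tead2 304 of 360.2 TPM over 4 TEAD genes. None of 39 Hox genes, which pattern the hindbrain and spinal cord, reached 1 TPM, and all together summed to 0.559 TPM. In other families several members were high: SoxC levels were divided into 47.6% ± 0.687 for Sox4, 40.4% ± 0.336 for Sox11 and 11.9% ± 0.572 for Sox12, and SoxB1 levels into 55.7% ± 0.760 for Sox2, 26.5% ± 0.988 for Sox3 and 17.8% ± 0.700 for Sox1. The immediate early factors Egr1 and Egr3 stood at 2.37 and 2.17 TPM, among the low values of the factors.

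The ISWI remodelling ATPases, the subject of the series, slide and space nucleosomes. Smarca5 (SNF2H) stood at 111, 109.6 and 104 TPM and Smarca1 (SNF2L) at 17.9, 17.8 and 17.9 TPM. Smarca5 thus held 85.8% ± 0.395 of the sum of both, although 32.8% of its 31-base words occur in another gene. Smarca5 lies at chr8:80698507-80739497, minus strand, and Smarca1 at chrX:47809368-47892974, minus strand (GRCm38). Among 22 remodelling ATPases, Smarca5 placed 8 and Smarca1 20. The highest were the NuRD ATPases Chd3 (489 ± 6.28 TPM) and Chd4 (280.3 ± 4.31 TPM) and the SWI/SNF ATPase Smarca4 (BRG1, 248 ± 8.78 TPM), with Smarca2 (BRM) at 125 ± 6.29 TPM. All 22 stood at 10 TPM or more, the lowest being Ino80 (14.7 ± 0.255 TPM) and Ercc6 (13.9 ± 0.528 TPM). Of the 14044 genes at 1 TPM or more, 9864 stood at 10 or more.

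Other chromatin regulators also had a clear order. Ezh2, the Polycomb histone H3 methyltransferase of dividing cells, stood at 369, 371 and 367 TPM, and its paralog Ezh1 at 15.3, 16.7 and 16.6 TPM. Rbbp4, a shared histone chaperone, stood at 281 ± 2.28 TPM, and the PRC2 subunits Suz12 and Eed at 91.3 ± 1.66 and 90.3 ± 6.37 TPM. Hdac2 was the highest class I histone deacetylase at 383 ± 6.53 TPM, 59.0% ± 0.413 of the sum over 4 genes, above Hdac1 at 134 ± 3.49 TPM and Hdac3 at 117 ± 1.86 TPM. Of the DNA methyltransferases, the maintenance enzyme Dnmt1 stood at 133 ± 4.33 TPM, Dnmt3a at 69.5 ± 5.07 TPM and Dnmt3b at 5.54 ± 0.304 TPM. Tet3, which oxidises methylcytosine, stood at 47.7 ± 1.27 TPM, above Tet2 (28.2 ± 0.975 TPM) and Tet1 (14.2 ± 2.36 TPM) with no overlap. The variant histone gene H3f3a held 67.5% ± 0.326 of the sum of the H3.3 genes.

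Most of the RNA-binding regulators listed were well expressed. Of 32 genes listed, 31 reached 1 TPM, 29 stood at 10 TPM or more and 15 at 100 or more. Of the 14044 genes at 1 TPM or more, 9864 reached 10 TPM and 1904 reached 100. The 32 were chosen by name, so the counts do not describe RNA-binding genes as a class. Msi1, the Musashi protein of neural progenitors, led at 358, 343 and 355 TPM. Ptbp2, the splicing repressor of young neurons, stood at 315, 311 and 322 TPM, and Ptbp1, its counterpart in progenitors, at 243, 246 and 245 TPM, so both were read at once in this mixed tissue. Among Hu proteins, Elavl3 stood at 263 ± 6.78 TPM, Elavl2 at 115 ± 4.72, Elavl4 at 105 ± 3.03 and the broadly used Elavl1 at 85.9 ± 2.14 TPM. Rbfox2 stood at 178 ± 9.25 TPM, above Rbfox3 (NeuN, 61.1 ± 5.10 TPM) and Rbfox1 (32.0 ± 0.557 TPM). Srrm4, which promotes neuronal microexons, stood at 56.7 ± 3.40 TPM and Nova2 at 59.0 ± 2.26 TPM, against 27.2 ± 2.68 TPM for Nova1. Lin28a, a gene of early embryonic cells, was at 0.112 TPM, while Lin28b was at 5.58 ± 0.454 TPM.

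Cell cycle genes showed a marked preference among paralogs. Ccnd2 held 76.5% ± 1.12 of D-type cyclin TPM at 387, 383 and 372 TPM, with Ccnd1 at 62.4 ± 6.11 TPM and Ccnd3 at 54.2 ± 1.01 TPM. Its kinase partner Cdk4 stood at 1153, 1196 and 1252 TPM, and Cdk6 at 18.4, 17.6 and 16.7 TPM. The Cdk4 level includes a large part from transcripts annotated as not coding, described with the isoforms. Mitotic genes included Cdk1 at 195 ± 6.06 TPM, Ccnb1 at 164 ± 6.92 TPM and Ccna2 at 141 ± 5.98 TPM. The inhibitors Cdkn1c (p57) and Cdkn1b (p27), genes of cell cycle exit, stood at 186 ± 11.3 and 148 ± 4.13 TPM, and Cdkn1a (p21) and Cdkn2a at 16.8 ± 0.906 and 0.0236 TPM.

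In the Notch pathway, in which ligands on young neurons hold neighbouring progenitors undifferentiated, ligands, receptors and targets stood at overlapping levels. Dll1 was the highest ligand at 91.2 ± 2.39 TPM, followed by Dll3, Jag2 (26.2 ± 1.43 TPM), Jag1 (13.7 ± 0.104 TPM) and Dll4 (4.72 ± 0.793 TPM), the last a ligand of vessels. The receptors stood at 77.0 ± 8.17 TPM for Notch1, 32.0 ± 0.612 for Notch3, 27.0 ± 0.810 for Notch2 and 8.93 ± 1.63 for Notch4. Among targets, Hes5, Hes1 (68.8 ± 4.80 TPM) and Hey1 (60.3 ± 3.92 TPM) were present, and Heyl stood at 4.88 ± 0.452 TPM. Notch1 varied most of the receptors above 10 TPM, from 68.1 TPM in replicate 2 to 84.1 in replicate 1. All 22 Notch genes listed reached 1 TPM, against 13276 of 21794 protein-coding genes.

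Wnt genes were led by the pathway's own core. Ctnnb1, which encodes beta-catenin, an adhesion protein and the transducer of the signal, stood at 991, 957 and 945 TPM. Among ligands, Wnt7b (95.5 ± 5.62 TPM) and Wnt7a (30.97 ± 1.91 TPM) stood above the hem ligands, and Wnt1, of the midbrain, was listed at 0. The secreted inhibitor Sfrp1 stood at 159 ± 6.86 TPM. Fzd2 was the highest receptor at 67.3 ± 1.75 TPM, with Fzd1, Fzd3 and Fzd8 at 45.0, 44.8 and 37.8 TPM. Axin2, a feedback target, stood at 38.4 ± 3.45 TPM. Of the nuclear partners of beta-catenin, Tcf7l1 stood at 41.0 ± 1.31 TPM, Lef1 at 15.3 ± 1.996 TPM and Tcf7l2 at 8.60 ± 0.621 TPM.

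Hedgehog components were present with little ligand. Shh itself stood at 1.72, 1.04 and 1.57 TPM. The receptor Ptch1 and the factor Gli1, both direct targets, stood at 14.01 ± 0.778 and 5.04 ± 1.26 TPM, against 71.7 ± 0.362 TPM for the transducer Smo. Gli3, the main repressor of the dorsal forebrain, stood at 36.1 ± 1.03 TPM, above Gli2 at 20.6 ± 0.872 TPM with no overlap. The coreceptors Gas1, Cdon and Boc stood at 99.6 ± 2.86, 76.7 ± 3.29 and 37.9 ± 0.729 TPM.

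In FGF and BMP signalling the main receptors stood above the secreted ligands listed, while Fgfr4 (1.62 TPM) and Bmpr1b (6.28 TPM) were low. Fgfr3, Fgfr1 and Fgfr2 stood at 142 ± 12.1, 85.1 ± 2.79 and 67.5 ± 1.71 TPM, while of the secreted FGFs listed the highest was Fgf15, at 3.78 ± 1.01 TPM (Fgf13, at 82.2 ± 7.44 TPM, is an intracellular channel partner). Fgf8, of the rostral patterning centre, stood at 0.193 TPM and Fgf17 at 1.12 ± 0.798 TPM. The BMP receptor genes Bmpr1a and Bmpr2 stood at 38.6 ± 1.63 and 26.4 ± 1.11 TPM, and the ligands Bmp7 and Bmp4 at 8.46 ± 1.04 and 2.42 ± 0.847 TPM. In retinoic acid signalling, the receptors Rxrb and Rara stood at 70.4 ± 2.64 and 14.9 ± 0.391 TPM, and the synthesising enzymes Aldh1a3, Aldh1a2 and Aldh1a1 at 3.43 ± 0.694, 2.58 ± 0.407 and 0.0106 TPM.

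The Reelin pathway, which positions migrating neurons, was present at each step. Its receptors Lrp8 (ApoER2) and Vldlr stood at 101 ± 4.60 and 17.6 ± 1.30 TPM, the adaptor Dab1 at 63.6 ± 4.98 TPM, and the Dab1 kinases Fyn and Src at 134 ± 2.11 and 94.5 ± 1.55 TPM. Pafah1b1 (Lis1), a dynein regulator, stood at 127 ± 2.37 TPM. All 10 genes of the list stood at 10 TPM or more, and 4 at 100 or more. Of the 14044 genes at 1 TPM or more, 9864 reached 10 TPM and 1904 reached 100.

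Most axon guidance genes listed were present. Of 31 semaphorin, plexin, netrin and Slit pathway genes, 30 reached 1 TPM and 26 stood at 10 TPM or more. Of the 14044 genes at 1 TPM or more, 9864 stood at 10 or more. The guidance list was led by the plexins Plxnb2 (153 ± 4.002 TPM) and Plxna3 (136 ± 0.892 TPM), with Robo2 at 83.1 ± 5.23 TPM and Slit1 at 39.5 ± 2.55 TPM. Ephrin genes were led by Efnb1 (168 ± 5.81 TPM), Efnb2 (139 ± 4.26 TPM) and the receptor Epha4 (122 ± 5.64 TPM). Neurotransmitter receptors were mostly low, with a median of 7.05 TPM over 30 genes. Gria2, the AMPA receptor subunit that limits calcium entry, stood at 119.7, 121 and 108 TPM and held 71.4% ± 1.18 of AMPA subunit TPM. Of the GluN2 subunits, Grin2b held 65.2% ± 1.81 at 6.21 ± 0.501 TPM, and Grin2a, which is used later, stood at 0.214 TPM. Gabra2 and Gabra3 stood at 17.8 ± 1.09 and 8.74 ± 0.0603 TPM. Igfbp2, a binding protein of insulin-like growth factors, stood at 273 ± 6.95 TPM, and the ligands Igf2 and Igf1 at 115 ± 9.22 and 1.23 ± 0.245 TPM.

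Structural and metabolic families showed which paralog the tissue used. Tuba1a held 76.6% ± 0.924 of alpha tubulin TPM and Tuba1b 19.8% ± 0.488, but these genes share 78.6% and 68.9% of their 31-base words with other genes, so the division is uncertain. Beta tubulin was divided among Tubb2b (37.4% ± 0.393), Tubb5 (33.1% ± 0.520) and Tubb3 (18.01% ± 0.257), with 43.1% of the words of Tubb2b shared, most with Tubb2a, so its part is uncertain too. Stmn1 held 82.0% ± 0.144 of stathmin TPM. The embryonic lamin Lmnb1 stood at 405 ± 19.6 TPM, against 9.07 ± 0.287 TPM for Lmna, and the neuronal filament genes Ina and Nefl at 209 ± 11.8 and 14.1 ± 1.41 TPM. In energy metabolism, Ldha held 59.8% ± 0.920 of lactate dehydrogenase TPM and Hk1 71.1% ± 0.458 of hexokinase TPM, and Slc2a1, the glucose transporter of barrier cells, 64.1% ± 1.86 of the transporters listed. The chloride importer Slc12a2 (NKCC1) stood at 26.3 ± 0.239 TPM and the exporter Slc12a5 (KCC2), which rises as neurons mature, at 16.2 ± 3.02 TPM.

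Most genes had several annotated transcripts. Of 11352 genes at 5 TPM or more, 10194 had more than 1 transcript in the tables, counting those at 0. Their leading transcript, the one of highest mean TPM, held a median of 67.4% of the gene's TPM. It held 50% or more in 7366 genes (72.3%) and 90% or more in 2115 (20.7%). The latter share was 35.9% by estimated counts, and 34.4% among protein-coding transcripts only. The same transcript led in all 3 samples for 9135 genes (89.6%). Where it did not, the leader held a median of 35.0%, against 71.8% elsewhere. Among 10132 protein-coding genes, a transcript annotated as protein-coding led in 9370 (92.5%), and the APPRIS principal isoform, the annotation's main protein form, led in 7782 of the 10125 that have it (76.9%). Tbr1, Eomes and Smarca5 each had a leader above 50% in every sample. Tbr1-201 held 86.2%, 86.6% and 86.6%, Eomes-201 76.2%, 76.8% and 77.3% and Smarca5-201 72.2%, 70.5% and 72.8%. Smarca1-202 held 50.5%, 45.5% and 44.8% of Smarca1, and Smarca1-203 31.6%, 28.6% and 40.4%. Pax6 was the most divided of the markers, since its highest transcript, Pax6-204, held 16.8%, 18.5% and 19.3%.

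Some highly expressed coding genes were led by a transcript not annotated as protein-coding. It was a retained-intron transcript in 355 genes, a nonsense-mediated decay transcript in 211 and a processed transcript in 194. Among the highest were Tpt1, where Tpt1-204 held 60.8%, 62.9% and 60.8%, and Ppia, where Ppia-201 held 62.05%, 62.5% and 62.03%. Gapdh-206, a retained-intron transcript, held 41.3%, 42.4% and 44.2% of Gapdh. Hnrnpu-206 held 56.8%, 57.6% and 56.4% of Hnrnpu, and Cdk4-209 held 34.3%, 33.9% and 34.8% of Cdk4, ahead of every coding transcript of that kinase. Rpsa, Rpl35, Anp32a and Eef1b2 were also among the highest 10. Many of these transcripts are short models that overlap the coding ones: Cdk4-209 is 468 nucleotides long and Gapdh-206 565. Over all protein-coding genes, retained-intron transcripts held 8.03% ± 0.0532 of all TPM and nonsense-mediated decay transcripts 2.74% ± 0.0144.

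Near-even pairs led a small part of the genes. Of the 10194 genes at 5 TPM or more with several transcripts, 324 had a leading pair that held 40% to 60% each. Rpl7-205 and Rpl7-201 held 49.9% and 49.1%, and the leader was not the same in each sample. Ywhaz, a 14-3-3 protein gene, was divided into 54.0% for Ywhaz-204 and 43.4% for Ywhaz-201, and the ribosomal protein gene Rps15a into 52.8% and 44.6%. Genes whose leader changed between samples included Hnrnpk, Fau, Rpl38, Serbp1 and Gnb1. In Hnrnpk, Hnrnpk-201 held 21.2%, 22.0% and 21.4% and Hnrnpk-224 21.5%, 20.04% and 21.8%.

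Division among transcripts differed between gene groups. For genes of the BMP and TGF-beta list the median leading share was 91.3% over 20 genes, for ephrins and their receptors 91.4% over 14, and for Hedgehog genes 90.3% over 9, against 67.4% over all. Remodelling ATPases were more divided, at 52.7% over 22 genes, as were DNA methylation genes at 46.9% over 12. Lists differ in how many transcripts are annotated for a gene, and no test was made. Among cytoskeletal and signalling genes, Dcx-201 held 90.7%, 92.4% and 92.3% of Dcx, Cdc42-202 74.2%, 73.9% and 75.4% of Cdc42, a small GTPase of polarity, and Gnas-208 81.3%, 82.6% and 81.9% of Gnas, a G protein gene. Tpm3-201 held 82.0%, 83.3% and 81.7% of Tpm3, a tropomyosin.

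Alternative coding exons were read as inclusion, the percent of TPM from transcripts that hold an exon among those that hold or skip it. It rests on Salmon's division of reads among annotated transcripts, not on counted junctions. Sequences are shown for exons whose choice changes a protein in neural cells. In Pkm, pyruvate kinase, a pair of exons of equal length exclude each other and set the M1 and M2 enzymes. Their sequences follow, from GENCODE M21 transcripts, 5′ to 3′, with the bases that differ between them in capitals.
Pkm upstream exon (M1): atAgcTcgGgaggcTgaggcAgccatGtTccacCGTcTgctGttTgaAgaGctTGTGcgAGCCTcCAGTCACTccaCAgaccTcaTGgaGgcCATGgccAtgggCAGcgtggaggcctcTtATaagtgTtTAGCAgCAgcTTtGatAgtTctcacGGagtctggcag
Pkm downstream exon (M2): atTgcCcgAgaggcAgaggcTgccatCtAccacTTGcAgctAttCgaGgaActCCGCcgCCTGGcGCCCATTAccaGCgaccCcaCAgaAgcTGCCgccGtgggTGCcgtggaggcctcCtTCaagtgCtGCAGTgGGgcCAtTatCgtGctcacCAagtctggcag
They differ at 64 of 167 bases and lie at chr9:59675029-59675195, plus strand, and chr9:59675568-59675734, plus strand (GRCm38). The downstream exon, of the form typical of dividing and embryonic cells, was included in 77.3%, 79.6% and 79.6%, and the upstream exon in 22.7%, 20.4% and 20.4%. M2 thus prevailed in every sample, on a mean of 1073 TPM of transcripts that hold either exon. By estimated reads in place of TPM, the M1 exon stood at 18.2%.

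Snap25, a synaptic fusion protein, has a pair of exons of the same kind, which give the 5a form of early development and the 5b form of mature synapses.
Snap25 upstream exon: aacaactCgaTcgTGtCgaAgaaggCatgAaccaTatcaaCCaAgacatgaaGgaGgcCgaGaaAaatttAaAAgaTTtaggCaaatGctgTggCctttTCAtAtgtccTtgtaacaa
Snap25 downstream exon: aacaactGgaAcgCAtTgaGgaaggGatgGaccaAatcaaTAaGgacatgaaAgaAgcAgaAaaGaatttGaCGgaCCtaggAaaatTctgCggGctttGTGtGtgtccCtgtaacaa
Capitals again mark the 31 of 118 bases that differ. The exons lie at chr2:136769743-136769860, plus strand, and chr2:136770057-136770174, plus strand. The upstream exon stood at 40.7%, 39.4% and 39.6% and the downstream exon at 59.3%, 60.6% and 60.4%, close in all 3 samples. By estimated reads the downstream exon came to 77.3%, so the size of the difference depends on the scale. Each exon is held by 1 transcript, of 1014 nucleotides for the upstream exon and 2116 for the downstream one. Estimated reads are not scaled for length and favour the longer transcript, so they are no separate reading of the direction.

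Pax6 holds a 42-nucleotide exon, known as 5a, inside the sequence for its paired domain, and including it changes which DNA sites the protein binds. It is shown in capitals with 20 coding bases on each side.
Pax6 exon 5a: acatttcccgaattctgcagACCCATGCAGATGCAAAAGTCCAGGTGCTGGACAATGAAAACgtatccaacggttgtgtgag
At chr2:105684751-105684792, plus strand, it was included in 17.8%, 18.9% and 21.6% of the TPM of transcripts that hold or skip it, which came to 109 TPM on average. The canonical form without it was the major one in every sample. The same was read from protein-coding transcripts alone (19.5%) and from estimated reads (18.4%).

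Microexons, very short exons used most in neurons, were partly included. They are printed in the same way, with the exon in capitals.
Src: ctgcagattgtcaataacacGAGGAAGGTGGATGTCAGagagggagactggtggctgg
Kdm1a: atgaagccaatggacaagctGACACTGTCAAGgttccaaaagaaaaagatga
Mef2a: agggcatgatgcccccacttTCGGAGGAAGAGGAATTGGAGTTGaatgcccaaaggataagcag
Mef2c: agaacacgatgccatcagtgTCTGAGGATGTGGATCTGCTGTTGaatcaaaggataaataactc
Mef2d: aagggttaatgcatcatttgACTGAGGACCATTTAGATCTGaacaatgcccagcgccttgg
The 18-nucleotide exon of Src (N1, chr2:157458843-157458860, plus strand), which lengthens a loop of the SH3 domain, was included in 55.9%, 55.5% and 40.03%, lowest in replicate 3. The 12-nucleotide exon of Kdm1a, the histone demethylase LSD1 (chr4:136563438-136563449, minus strand), stood at 11.6%, 9.12% and 9.78%, and at 2.999% by estimated reads. A 60-nucleotide exon of the same gene stood higher, at 44.2% ± 1.93. The MEF2 genes, neuronal transcription factors, have a like short exon for an acidic stretch. It was included in 74.2% ± 4.34 for Mef2a (chr7:67244521-67244544, minus strand) and 88.3% ± 2.58 for Mef2c (chr13:83654598-83654621, plus strand), against 14.04% ± 0.909 for Mef2d (chr3:88161781-88161801, plus strand). The Mef2d exon was the lowest of these in every sample, and by estimated reads it came to 5.56%.

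Agrn, the gene of agrin, has short exons found in its neural form, and those of 24 and 33 nucleotides let agrin activate its receptor at the muscle synapse.
Agrn 12-nucleotide exon: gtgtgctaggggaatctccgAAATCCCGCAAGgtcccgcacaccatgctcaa
Agrn 24-nucleotide exon: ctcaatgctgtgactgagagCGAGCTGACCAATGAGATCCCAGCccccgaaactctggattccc
Agrn 33-nucleotide exon: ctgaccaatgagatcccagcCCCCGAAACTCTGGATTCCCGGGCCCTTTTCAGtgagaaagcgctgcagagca
They were included in 43.1% ± 1.10, 51.6% ± 0.653 and 15.5% ± 1.22, at chr4:156169546-156169557, minus strand, chr4:156168546-156168569, minus strand, and chr4:156167777-156167809, minus strand. By estimated reads they came to 46.8%, 35.1% and 21.8%, so the order of the 12- and 24-nucleotide exons depended on the scale used. From protein-coding transcripts alone each came to the same 24.3%, a reading that does not tell these exons apart.

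Further exons are known for use in neurons or progenitors. The 34-nucleotide exon of Ptbp2 (a frame-shifting exon whose skipping leads to decay of the RNA) was included in 80.6%, 81.1% and 80.5%.
Ptbp2: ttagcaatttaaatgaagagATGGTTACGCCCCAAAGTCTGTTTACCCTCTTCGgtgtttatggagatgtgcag
It lies at chr3:119724612-119724645, minus strand, and by estimated reads it was included in 96.3%. The clathrin light chain genes Clta and Cltb each have a 54-nucleotide exon known for use in brain, at chr4:44030215-44030268, plus strand, and chr13:54597026-54597079, minus strand.
Clta: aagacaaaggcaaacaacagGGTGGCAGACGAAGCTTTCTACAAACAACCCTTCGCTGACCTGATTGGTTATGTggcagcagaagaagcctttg
Cltb: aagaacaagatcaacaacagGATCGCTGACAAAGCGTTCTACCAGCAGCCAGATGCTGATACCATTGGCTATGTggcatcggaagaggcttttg
They stood at 45.8%, 43.5% and 43.0% for Clta and 56.6%, 53.0% and 52.4% for Cltb, the latter at 32.6% by estimated reads. For Numb, an antagonist of Notch, the 147-nucleotide exon (chr12:83797197-83797343, minus strand) stood at 52.9%, 37.6% and 32.7% and the 33-nucleotide exon (chr12:83825259-83825291, minus strand) at 17.3%, 26.9% and 21.3%. The first is the widest spread of the exons plotted, on a mean of 21.9 TPM of transcripts that hold or skip it, and from protein-coding transcripts alone it came to 24.7%.
Numb 33-nucleotide exon: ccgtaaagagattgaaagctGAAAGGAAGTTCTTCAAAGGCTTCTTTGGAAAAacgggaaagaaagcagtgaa

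**Figure D5:**
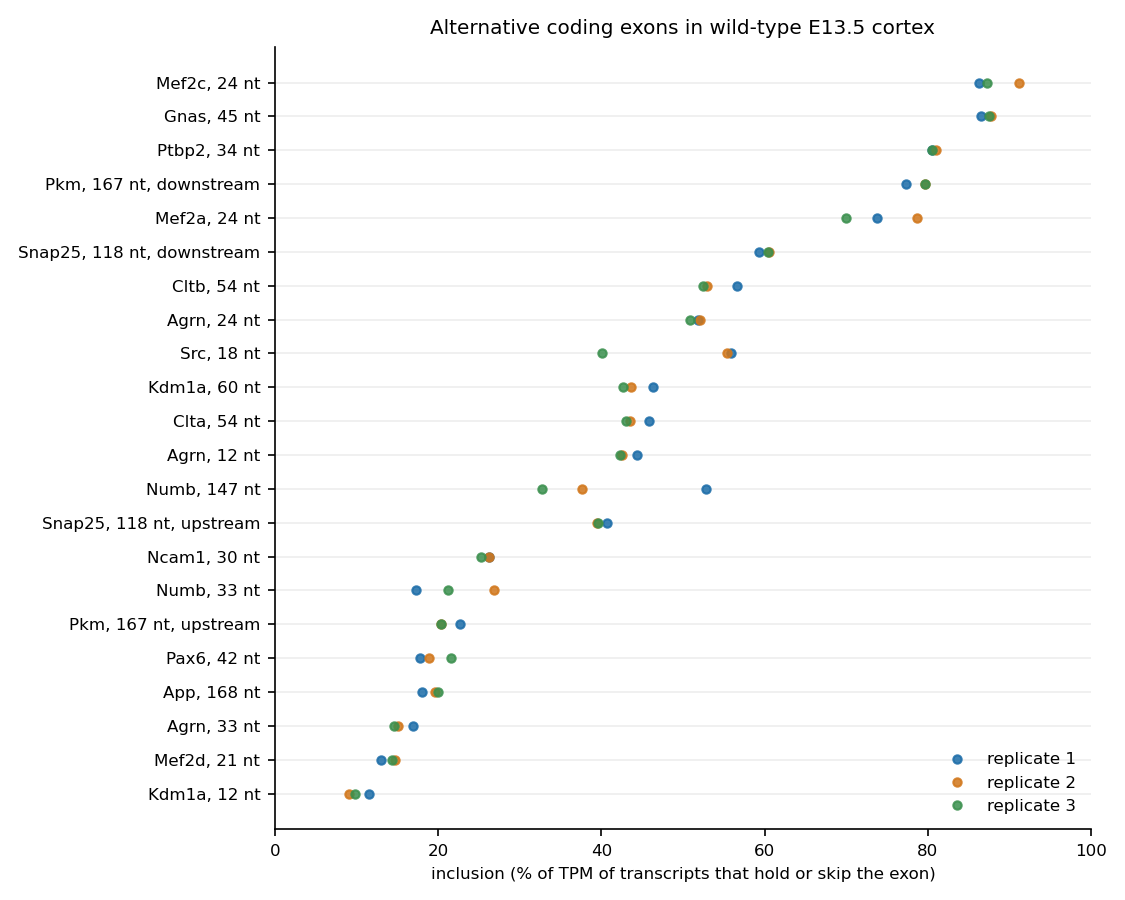
Inclusion of 22 alternative coding exons (percent of TPM from transcripts that hold or skip the exon) in each of the 3 wild-type samples, 1 point per replicate, named by gene and exon length in nucleotides (nt). Most exons keep within a few percentage points over the replicates; the 147-nt exon of Numb and the 18-nt exon of Src spread the most.

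Exons of mature neuronal proteins were mostly skipped in Map2 and Mapt. The exon of 3741 nucleotides that gives high-molecular-weight MAP2 was included in 12.1% ± 0.650, on 355 TPM of transcripts that hold or skip it. Map2-201, which lacks it, held 64.9%, 63.6% and 60.6% of the whole gene's TPM. Mapt, the gene of tau, was held by 1 transcript, Mapt-204, at 91.9%, 93.8% and 90.1%, and the pair of 87-nucleotide exons near its N-terminus, which adult tau includes, stood at 0.339% ± 0.0159 each and 0.135% by estimated reads. In App, the 168-nucleotide exon of the Kunitz inhibitor domain, which neurons mostly skip, stood at 19.2% ± 1.08, and App-201, which encodes the form without it, held 80.6%, 79.7% and 79.3%. In Ncam1, a 30-nucleotide exon stood at 25.9% ± 0.545. It is held by 1 annotated transcript, and exons of 3 and 15 nucleotides stood at the same values. The level of the 30-nucleotide exon was thus not read apart from theirs. Gnas held its 45-nucleotide exon, which parts the long and short forms of the G protein, in 87.3% ± 0.639.

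Fgfr3 and Fgfr2 used mainly their IIIc exons, the form of mesenchymal and neural cells. In Fgfr3 the IIIc exon (145 nucleotides, chr5:33732117-33732261, plus strand) stood at 96.0%, 99.3% and 98.4% and the IIIb exon (151 nucleotides, chr5:33731281-33731431, plus strand), typical of epithelia, at 4.002%, 0.719% and 1.63%. In Fgfr2 the IIIc and IIIb exons stood at 53.4% ± 1.33 and 8.28% ± 1.23, on 50.2 TPM, much of it from transcripts that hold neither. From protein-coding transcripts alone they came to 68.3% and 10.6%. In Tcf3 the pair of exons for the DNA-binding domain, which give E12 and E47, were both used, the 227-nucleotide exon at 38.1% ± 1.76 and the 236-nucleotide exon at 60.5% ± 0.863. Tpm3 used mainly 1 of its paired 76-nucleotide exons (93.6% ± 0.217 against 6.17% ± 0.157), while Tpm1 used both (50.6% ± 2.35 and 41.6% ± 2.65), which are listed here in genome order.

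The replicates differed little for most genes. Over 9864 genes at 10 TPM or more the median coefficient of variation (CV, the SD as a percent of the mean) was 4.17%, and 9 in 10 genes lay below 10.2%. It was 12.2% for genes at 1 to 10 TPM and 2.50% for those at 1000 TPM or more. A CV over 25% was found in 82 genes, of which 50 shared at least 50% of their 31-base words with other genes, against 4.80% of all genes at 10 TPM or more. The 10 highest CVs were mostly of pseudogenes listed at 0 in some samples, such as Gm6565 (0, 0 and 58.3 TPM). Ahcy, the enzyme that clears S-adenosylhomocysteine, stood at 2.77, 36.7 and 37.4 TPM, and 71.4% of its 31-base words are shared. Cplane1, a ciliary planar polarity gene, stood at 71.5, 204 and 23.4 TPM. Its leading transcript, Cplane1-206, is only 93 nucleotides long.

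Among coding genes with under 10% of 31-base words shared, the widest spread after Cplane1 was that of Lhx8, the ventral forebrain factor described above. Rspo1, of the cortical hem, came within the highest 15 at 11.1, 19.1 and 13.2 TPM, and so did the embryonic globin Hbb-bh1 at 14.9, 15.1 and 23.5 TPM. Lzts1, a gene of delaminating cells in the cortical wall, stood at 47.9, 76.7 and 43.8 TPM, highest in replicate 2. These stood beside Tmem9 (43.4, 40.6 and 71.6 TPM) and Slc10a7 (8.61, 7.56 and 16.7 TPM).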

How the data were processed

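RNA was quantified in 3 wild-type samples of whole E13.5 mouse cortical tissue. Stranded mRNA libraries were made from Trizol-extracted, DNase-treated RNA, per the labels' protocols. Per the submitters' processing notes, transcripts were quantified with Salmon 1.4.0; the build mm10 and DESeq2 are also named, without a role. Salmon's settings and its index are not given in those sources. Deposited tables hold TPM and estimated counts per transcript, which Salmon divides among the transcripts a read matches, per the file headers, and effective lengths (other values, used for mitochondrial genes only). Salmon settles shared reads by estimation, so isoform shares and near-identical genes carry an error that the SD over replicates does not show.

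Each table held 116546 transcripts; 115977 matched GENCODE M21 (GRCm38) by identifier without version. The 569 others held 0.122% to 0.130% of TPM and stayed out. The tables hold few long non-coding genes. TPM was summed over the transcripts of 35498 genes, without rescaling, and averaged over the samples, with the SD and n = 3. Overlap means that the 3 values of 1 gene reach those of another. For shared sequence, each gene's 31-base words were looked up in the transcripts of every other gene, and the percent found was taken. Sequences and coordinates (from 1) are from the GENCODE M21 transcripts and annotation. Python 3.11.15 with pandas 2.3.3 was used, and edgeR 4.0.16 (R 4.3.3) only for TMM scaling of the rounded estimated counts in an alternative. The arithmetic recovered known gene levels, isoform shares and exon inclusion from simulated tables. Counts there were drawn for each transcript directly, so Salmon's division of shared reads was not tested.

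The genes named are those of cell-type, regulator, pathway and family lists and of factor families, the highest 30 genes, the highest CVs and isoform lists. Members and lists were chosen with earlier results of these data known. Alternatives were thresholds, scales, biotypes and leaving out each replicate. A few genes are not reported here. No groups were compared and no test was run.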

Additional observations from a re-analysis of the deposited data

How the results depend on the processing

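Estimated counts scaled to depth (CPM), with no scaling for length, moved the markers to percentile 89.6 for Pax6, 94.6 for Eomes, 96.6 for Tbr1 and 94.4 for Neurog2, and the share of the top 100 genes to 13.6%. Among all genes with no filter the percentiles were 96.5, 96.7, 97.5 and 98.1 in that order. The share of the top 100 genes was 21.1% without mitochondrially encoded genes and 23.9% among protein-coding genes. Genes whose leading transcript held 90% or more numbered 3662 by shares of estimated counts and 1392 at a minimum of 20 TPM, which tests fewer genes. The median CV was 5.35% at a minimum of 1 TPM, 3.22% at 50 TPM and 3.12% for TMM-scaled estimated counts. Apart from the smaller sets of genes, the cause was not tested.

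Without each replicate in turn, the number of genes at 1 TPM or more was 14028 to 14047, the percentile 91.1 to 91.3 for Pax6, 91.6 to 91.9 for Eomes, 93.6 to 94.0 for Tbr1 and 95.05 to 95.2 for Neurog2, and the top 100 share 24.1 to 24.4%. Genes led at 90% or more numbered 2114 to 2148, and the median CV was 3.298 to 3.50%, from pairs of samples. Other thresholds and biotypes kept the number of genes at 1 TPM or more between 12924 and 15151. After the data were seen, the mitochondrial share was also taken by estimated reads, at 1.73%, and exon inclusion from coding transcripts or reads. No paired analysis was possible because only 1 group was used and no test was made.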

Other observations

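A few further values stood out and were chosen after they were seen. Hist1h2ap, a histone H2A gene, stood at 2161, 2171 and 2580.2 TPM and made up most of the TPM of replication-dependent histone genes. It shares 93.4% of its 31-base words with other genes. Eno1, a glycolytic enolase, stood at 205, 377 and 393 TPM, with its level in replicate 1 below both others, and 28.5% of its words are shared. mt-Nd3, a subunit of respiratory complex I, stood at 762, 594 and 283 TPM, and 98.1% of its words are shared, most with the nuclear copy Gm28438 (1350.1, 1594 and 1959 TPM). In these genes the spread between replicates is wider than in most genes of the same level, and the part that shared sequence plays was not tested.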
